A study of Mus musculus with 7 samples.

Results

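The genes described here are those of the collagen chains, taken as every gene whose symbol has the form Col, number, a, number, except Col17a1 and Col7a1. Of the 18193 genes measured, 40 met this rule, and each was represented by its probe set with 1 gene symbol and the highest mean over the 7 arrays. RefSeq lists 42 such symbols, and the other two, Col6a6 and Col28a1, had no probe set with their symbol and are not analysed here. The members were grouped as 11 fibrillar collagens, 8 basement membrane collagens (the Col4 chains with Col15a1 and Col18a1) and 21 other collagens. Their levels came from Affymetrix mouse arrays of RNA from mouse skin tumour cells sorted for Cd34 and Epcam. The tumours had been induced with DMBA, a carcinogen, and TPA, a tumour promoter. There were 4 arrays from carcinomas, which are malignant, and 3 from papillomas, which are benign. Sample descriptions put the name Nr2f2 before the tumour type in both groups and state no genotype, strain or age. For each tumour type, the title of 1 array carries GFP where the others carry a number, and what GFP marks is not explained. The arrays with the tag are called tagged (n = 2) and the others untagged (n = 5). Whether arrays came from separate animals is not stated, so the p-values reflect the spread of these 7 arrays, which may be technical.

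Collagens are secreted proteins in which 3 chains wind into a triple helix. Fibrillar collagens assemble into the fibrils that give dermis and tumour stroma their tensile strength, and fibroblasts are their main source in skin. Collagen IV forms the sheet-like network of basement membranes, on which epithelial cells rest and which also surrounds blood vessels. Other collagens bind to fibrils, form beaded filaments, or cross the cell membrane.

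Keratinocyte genes were bright in every array. Krt5, a keratin of basal epidermal cells, lay between 12.91 and 13.73, on the log2 scale that holds for all levels given here, and Epcam, the sorting antigen, between 8.28 and 11.97 with its lowest value in papilloma GFP. Several features of the arrays moved with the tag. In the tagged arrays 11 of 14 fibroblast markers that are not collagens, 7 of 10 pericyte and smooth muscle markers and 15 of 15 endothelial markers were higher, with median differences of 4.02, 2.75 and 5.47. So were 5 of 8 myeloid and 3 of 7 lymphoid markers, with medians of 1.34 and 0.81. Over all genes 11.9% were called higher and 7.93% lower. The median level of the fibroblast markers was 5.11 to 6.43 in the untagged arrays, 10.15 in carcinoma GFP and 9.34 in papilloma GFP. That of the endothelial markers was 4.84 to 5.87 untagged, 10.97 in carcinoma GFP and 11.02 in papilloma GFP. The markers were not uniformly dim in the untagged arrays. Pdgfra, a receptor of fibroblasts, lay at 5.13 to 6.32 and Cdh5, the cadherin of endothelial junctions, at 4.23 to 5.47, whereas Fbln1 and S100a4 of the fibroblast list lay at 8.04 to 8.79 and 8.95 to 11.19 and Egfl7 of the endothelial list at 7.49 to 8.25. Of 11 measured keratinocyte markers 8 were lower in the tagged arrays, with a median of -1.34. For Gapdh, the 3' control probe set exceeded the 5' one by 3.19 in both tagged arrays and by -0.04 to 0.06 in the untagged ones, a measure that grows as labelled RNA shortens. The part of these features in the collagen differences below was not tested, and more cells of a type cannot be told apart from more RNA per cell.

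Tagged and untagged arrays differed in the level of 21 of the 40 collagen genes, all of them higher in the tagged arrays and none lower. The test was limma over all 18193 genes with tumour type in the model, at a Benjamini-Hochberg adjusted p under 0.05, and it called 11.9% of all genes higher and 7.93% lower. By class, 9 of 11 fibrillar, 4 of 8 basement membrane and 8 of 21 other collagens were higher. The median difference, tagged minus untagged, was 3.43 log2 units for fibrillar, 1.0 for basement membrane and 0.45 for other collagens, against -0.05 over all genes. For 22 of the 40 genes both tagged arrays lay above all 5 untagged arrays, which held for 21.0% of all genes, and for 0 both lay below them, against 19.9% of all genes. Setting the array medians equal moved the median of all genes to -0.29 and changed the split of calls from 2159 higher and 1442 lower to 1759 and 2442. The 21 collagen calls all held on that scale. Leaving out a tagged array leaves 1, whose spread is then taken to be like that of the other arrays. Without carcinoma GFP 11 collagens were called, and Col1a1, Col1a2, Col3a1, Col24a1, Col27a1, Col4a1, Col4a2, Col8a1, Col12a1 and Col26a1 were not. Without papilloma GFP 15 were called, and Col3a1, Col27a1, Col4a2, Col18a1, Col8a1 and Col12a1 were not. Some of these differences stayed as large: without carcinoma GFP Col4a1 and Col4a2 were at 6.28 and 5.99, and without papilloma GFP Col3a1 was at 4.97. Others moved by over 1.5 times. Without carcinoma GFP Col12a1 was at 1.77, Col14a1 at 2.54, Col24a1 at 1.21 and Col26a1 at 0.57, and without papilloma GFP Col18a1 was at 1.1 and Col26a1 at 1.97. Those that held when any 1 of the 7 arrays was left out were Col5a1, Col5a2, Col5a3, Col11a1, Col6a1, Col6a2, Col6a3, Col13a1, Col14a1 and Col15a1. Of these, Col5a3, Col11a1, Col13a1, Col14a1 and Col15a1 were below the median of all genes in every untagged array. Their untagged SDs were 0.1 to 0.37, against 1.4 for Col4a1, and a small spread helps a call to hold.

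**Figure D1:**
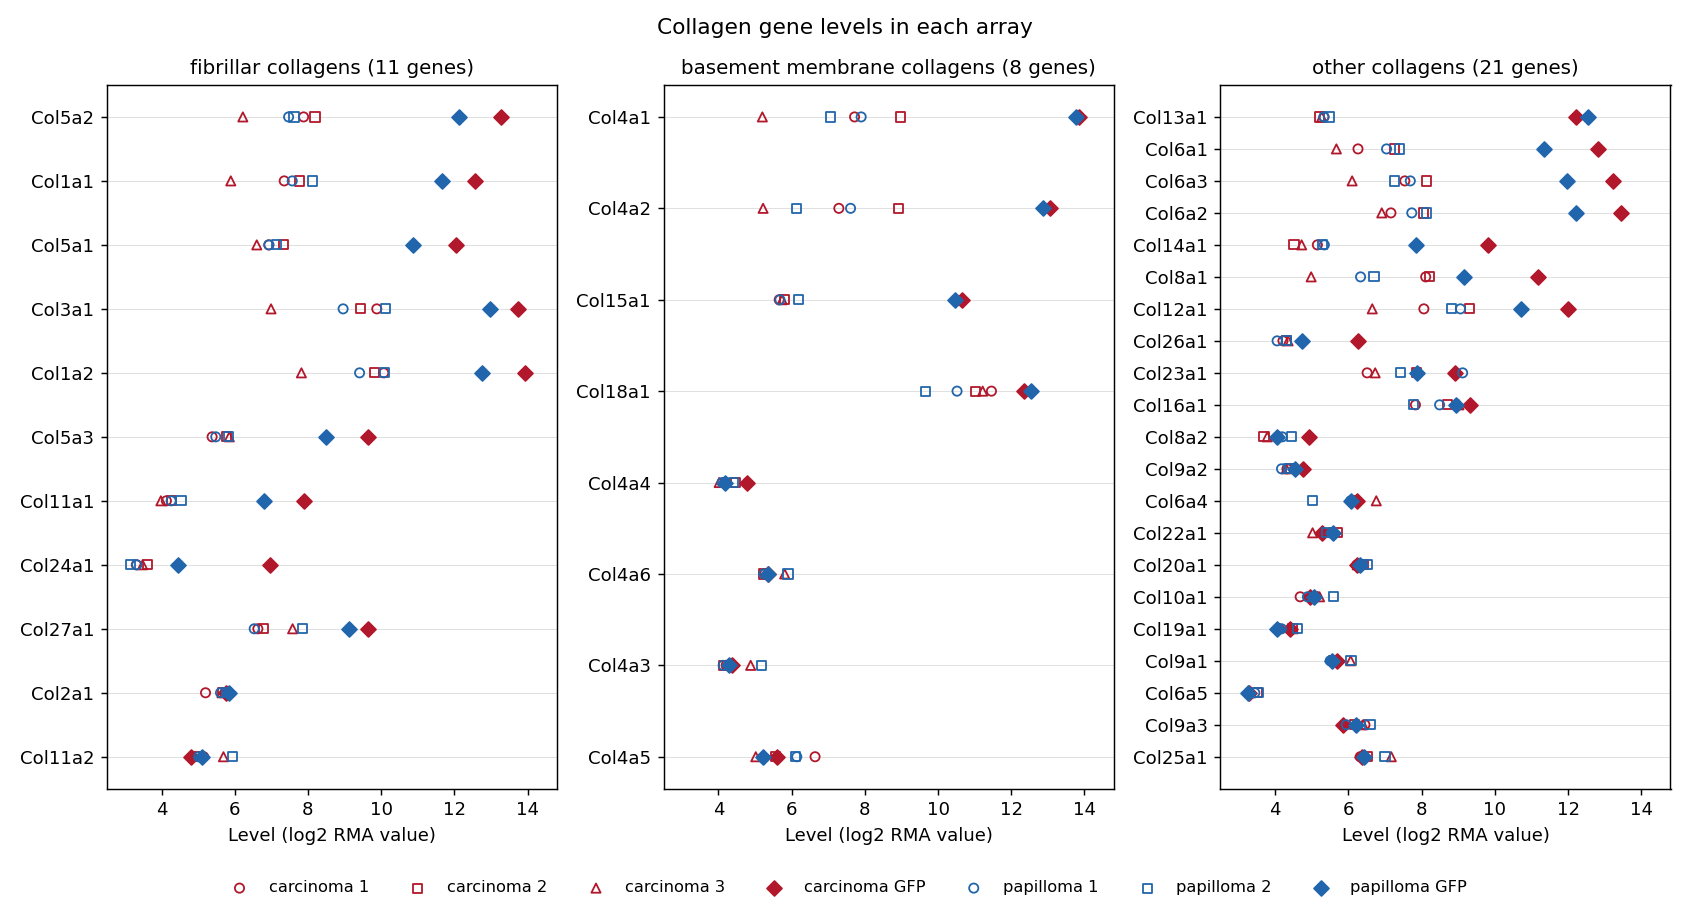
Level of each collagen gene in each array (log2 RMA value, horizontal axis), by class, with carcinoma in red and papilloma in blue. Filled diamonds are the 2 tagged arrays and open symbols the 5 untagged arrays; for 22 genes both diamonds lie above every open symbol.

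Collagen I and collagen III make up most of the fibrils of skin. Col1a1, a chain of collagen I, had levels of 7.35, 7.76 and 5.89 in carcinoma 1, 2 and 3 and 7.57 and 8.12 in papilloma 1 and 2, with 12.56 in carcinoma GFP and 11.67 in papilloma GFP. The tagged arrays stood far above the others, and carcinoma 3 was the lowest. The fitted difference was 4.74 (SE 0.59, limma adjusted p = 0.0025), or 26.7-fold. Col1a2, its partner chain, had 10.07, 9.81 and 7.82 in the untagged carcinoma arrays, 9.41 and 10.08 in the untagged papilloma arrays, 13.94 in carcinoma GFP and 12.76 in papilloma GFP. It differed by 3.91 (SE 0.68, limma adjusted p = 0.0092). Col3a1, the chain of collagen III, had 9.88, 9.44 and 6.99 in carcinoma 1 to 3, 8.96 and 10.11 in papilloma 1 and 2, and 13.75 and 12.97 in the tagged carcinoma and papilloma arrays. Its difference was 4.25 (SE 0.83, limma adjusted p = 0.014). All of these genes had the same order, with both tagged arrays on top and carcinoma 3 at the bottom. Their promoters are shown because the genes moved together. These are the 250 bases before the start of each gene on the + strand from RefSeq (GRCm38.p6), chr6:4505368-4505617 for Col1a2 and chr1:45311288-45311537 for Col3a1, with matches to the motifs searched in capitals.
Col1a2: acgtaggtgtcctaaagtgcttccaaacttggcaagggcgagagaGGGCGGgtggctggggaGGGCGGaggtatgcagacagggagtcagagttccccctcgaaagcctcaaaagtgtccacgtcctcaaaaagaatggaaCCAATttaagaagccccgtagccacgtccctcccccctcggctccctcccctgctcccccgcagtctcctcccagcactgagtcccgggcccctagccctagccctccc
Col3a1: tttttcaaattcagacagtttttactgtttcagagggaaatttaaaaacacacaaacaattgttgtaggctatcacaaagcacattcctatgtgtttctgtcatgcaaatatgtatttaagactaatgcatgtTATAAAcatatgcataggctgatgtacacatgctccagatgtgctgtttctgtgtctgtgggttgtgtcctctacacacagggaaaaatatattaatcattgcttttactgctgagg
Col1a2 held GGGCGG, the GC box, 205 and 188 bases before the start and CCAAT 109 bases before it. Col3a1 held TATAAA, the TATA box, 117 bases before the start and no match to the other motifs. Each motif was searched on both strands.

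Collagen V controls the width of collagen I fibrils. Col5a1 had 6.93, 7.32 and 6.60 in carcinoma 1 to 3, 6.93 and 7.15 in papilloma 1 and 2, 12.05 in carcinoma GFP and 10.86 in papilloma GFP. The untagged arrays lay close together, with an SD of 0.27, and the difference was 4.50 (SE 0.33, limma adjusted p = 0.000314). Col5a2 had 7.88, 8.19 and 6.22 in the untagged carcinoma arrays, 7.47 and 7.62 in the untagged papilloma arrays, and 13.28 and 12.12 in carcinoma GFP and papilloma GFP. This was a difference of 5.25 (SE 0.56, limma adjusted p = 0.00139), the largest among the fibrillar collagens. Col5a3 was dim in the untagged arrays, at 5.38 to 5.85, and reached 9.64 in carcinoma GFP and 8.49 in papilloma GFP, a difference of 3.43 (SE 0.30, limma adjusted p = 0.000582).

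Among the fibrillar collagens better known from cartilage and bone, Col11a1 lay at 3.98 to 4.53 in the untagged arrays, 7.88 in carcinoma GFP and 6.81 in papilloma GFP. Its difference was 3.13 (SE 0.31, limma adjusted p = 0.000953). Col24a1 lay at 3.14 to 3.61, 6.96 and 4.44 in the same order, so carcinoma GFP stood apart even from the other tagged array. Its difference was 2.42 (SE 0.47, limma adjusted p = 0.0137). Col27a1 lay at 6.53 to 7.86 in the untagged arrays, 9.63 in carcinoma GFP and 9.12 in papilloma GFP, and differed by 2.30 (SE 0.43, limma adjusted p = 0.0123). The main cartilage collagen, Col2a1, and Col11a2 were below the median gene in all 7 arrays, at 5.20 to 5.84 and 4.81 to 5.93. Tagged and untagged arrays overlapped for both.

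The Col4a1 and Col4a2 chains, which combine into the common form of collagen IV, had the largest differences of the basement membrane class. Col4a1 had 7.72, 8.98 and 5.20 in carcinoma 1 to 3, 7.90 and 7.07 in papilloma 1 and 2, 13.84 in carcinoma GFP and 13.76 in papilloma GFP. The tagged arrays differed from each other by 0.08, whereas the untagged arrays spread over several units. The difference between tagged and untagged arrays was 6.42 (SE 0.91, limma adjusted p = 0.00417), or 85.6-fold. Col4a2 had 7.29, 8.93 and 5.22 in the untagged carcinoma arrays, 7.61 and 6.13 in the untagged papilloma arrays, and 13.05 and 12.86 in carcinoma GFP and papilloma GFP. This was a difference of 5.94 (SE 0.92, limma adjusted p = 0.0059). For both chains carcinoma 2 was the highest and carcinoma 3 the lowest of the untagged arrays. The pair is transcribed in opposite directions, and in RefSeq the first bases of the genes overlap, so that 1 short stretch holds both starts. It is shown on the + strand (GRCm38.p6, chr8:11312805-11312826) from the first base of Col4a2 to the first base of Col4a1. Motif matches are not set in capitals in this stretch, which holds GGGCGG.
Col4a1 and Col4a2: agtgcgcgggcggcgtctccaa
The chains of the more specialised collagen IV networks did not follow. Col4a3, Col4a4 and Col4a6 were below the median gene in all arrays and differed by -0.19, 0.26 and -0.14. Col4a5, which lay at 5.02 to 6.64 over all arrays, differed by -0.49 (SE 0.43, limma adjusted p = 0.494). On its dimmer probe set both tagged arrays, at 4.37 and 4.41, lay below the untagged arrays, at 4.93 to 5.46. Col4a4 had a dimmer probe set with both tagged arrays above all untagged arrays and another with both below.

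Col15a1 and Col18a1 encode collagens of the basement membrane zone, and the end of Col18a1 is the precursor of endostatin, an inhibitor of vessel growth. Col15a1 had 5.66, 5.81 and 5.74 in carcinoma 1 to 3, 5.68 and 6.18 in papilloma 1 and 2, 10.65 in carcinoma GFP and 10.47 in papilloma GFP. The untagged arrays were nearly level and below the median gene, and the difference was 4.74 (SE 0.20, limma adjusted p = 4.25e-05). Col18a1 was above the median gene in all arrays. It had 11.46, 11.03 and 11.22 in the untagged carcinoma arrays, 10.52 and 9.65 in the untagged papilloma arrays, 12.34 in carcinoma GFP and 12.55 in papilloma GFP. The tagged arrays were higher by 1.74 (SE 0.37, limma adjusted p = 0.0194), and among the untagged arrays both papillomas lay below all carcinomas. On the other Col18a1 probe set papilloma 1, at 10.61, lay above carcinoma 3, at 10.49.

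**Figure D2:**
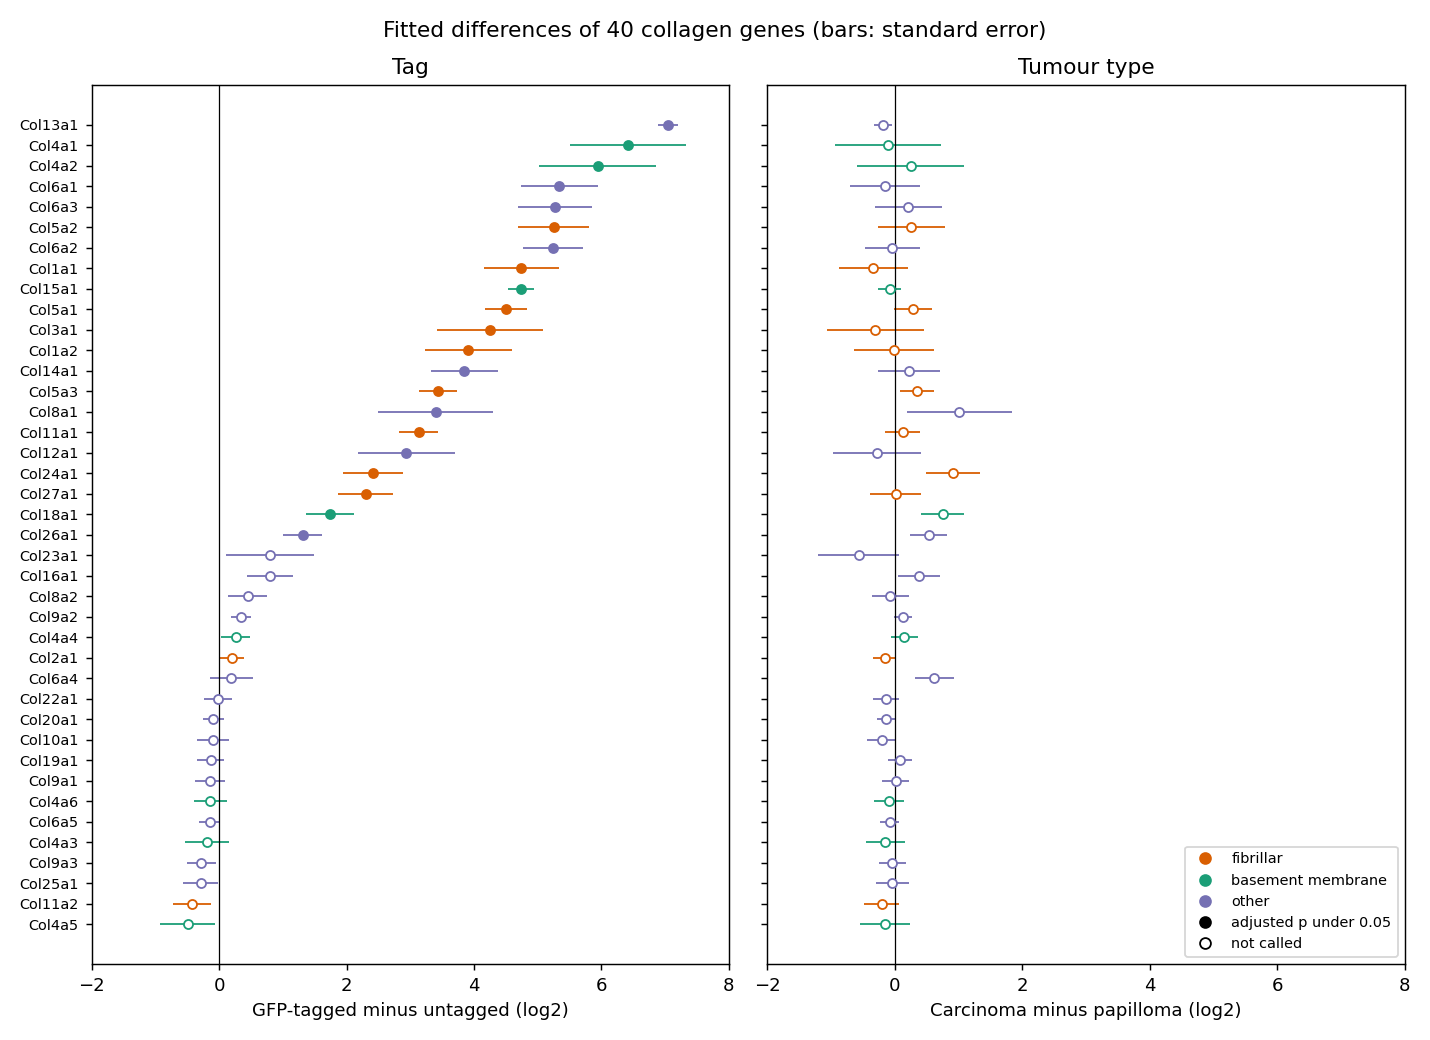
Fitted differences of the 40 collagen genes with standard errors (log2 units), tagged minus untagged on the left and carcinoma minus papilloma on the right, from 1 model with both terms. Filled points passed the adjusted p of 0.05, which 21 genes did for the tag and 0 for tumour type.

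Collagen VI forms beaded filaments around cells, from the chains of Col6a1, Col6a2 and Col6a3. Col6a1 had 6.26, 7.25 and 5.67 in carcinoma 1 to 3, 7.04 and 7.39 in papilloma 1 and 2, 12.82 in carcinoma GFP and 11.34 in papilloma GFP. Col6a2 had 7.16, 8.04, 6.91, 7.73, 8.14, 13.45 and 12.23 in the same order. Col6a3 had 7.54, 8.13, 6.10, 7.69, 7.26, 13.22 and 11.96. For each chain the tagged arrays were far above the rest, carcinoma GFP above papilloma GFP, and carcinoma 3 was the lowest. The differences were 5.34 (SE 0.60), 5.24 (SE 0.47) and 5.27 (SE 0.58), with limma adjusted p = 0.00161, 0.000671 and 0.00157. The other measured chains, Col6a4 and Col6a5, differed by 0.19 and -0.15 and were not called.

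Col13a1, a collagen that crosses the cell membrane and sits at cell contacts, had the largest difference of all members. It had 5.33, 5.20 and 5.27 in carcinoma 1 to 3 and 5.33 and 5.47 in papilloma 1 and 2, with 12.22 in carcinoma GFP and 12.54 in papilloma GFP. All untagged arrays were below the median gene and varied by an SD of 0.10, and the difference was 7.04 (SE 0.16, limma adjusted p = 1.41e-05). No detection calls were used, so the untagged level is not shown to be above background. Its promoter and that of Col6a1, both on the - strand of chromosome 10, are shown because these members had the largest tag differences among the other collagens. They are the bases before the start that lie outside annotated genes (GRCm38.p6, chr10:61979207-61979358 and chr10:76726045-76726294). The Col13a1 stretch holds 152 of the 250 bases and stops short of the start, because the bases nearest the start lie inside an annotated gene. Motif positions are counted from the start itself and not from the end of the stretch.
Col13a1: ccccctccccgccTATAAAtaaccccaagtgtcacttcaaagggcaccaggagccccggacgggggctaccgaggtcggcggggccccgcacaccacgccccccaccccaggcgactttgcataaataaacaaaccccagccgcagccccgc
Col6a1: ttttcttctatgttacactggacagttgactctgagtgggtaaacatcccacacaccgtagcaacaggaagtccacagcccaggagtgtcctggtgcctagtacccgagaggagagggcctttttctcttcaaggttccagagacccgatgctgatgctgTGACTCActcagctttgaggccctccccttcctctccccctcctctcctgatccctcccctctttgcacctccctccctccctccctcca
Capitals mark TATAAA, 237 bases before the Col13a1 start, and a match on the other strand to TGAGTCA, the AP-1 site, 90 bases before that of Col6a1. Over the 250 bases before the start, 31 of the 40 genes had a promoter in the RefSeq table. TATAAA was found in 4 of these 31 and in 12.4% of all 32851 promoters, CCAAT in 11 and 33.8%, GGGCGG in 19 and 32.7%, and TGAGTCA in 1 and 4.46%. AGGTCA, the half-site bound by nuclear receptors such as Nr2f2, was found in 7 of the 31, among them Col11a1 and Col24a1, and in 14.0% of all promoters. Of the 16 called genes with a promoter, 2 held AGGTCA. Collagens were counted by gene, with a match in any promoter of the gene, whereas all promoters were counted singly. The shares are therefore not in like units. A match is a description of letters and does not show a bound site.

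Of the fibril-associated collagens, 2 of 9 were higher in the tagged arrays, against 11.9% of all genes. Col12a1 had 8.06, 9.30 and 6.65 in carcinoma 1 to 3, 9.06 and 8.81 in papilloma 1 and 2, 11.99 in carcinoma GFP and 10.71 in papilloma GFP, a difference of 2.94 (SE 0.76, limma adjusted p = 0.0372). Col14a1 lay at 4.51 to 5.34 in the untagged arrays, 9.82 in carcinoma GFP and 7.84 in papilloma GFP, a difference of 3.85 (SE 0.52, limma adjusted p = 0.00351). Col16a1 was above the median gene in all arrays, at 7.78 to 9.02 untagged, 9.32 in carcinoma GFP and 8.95 in papilloma GFP, and was not called at 0.80 (SE 0.36, limma adjusted p = 0.18). Col9a1, Col9a2, Col9a3, Col19a1, Col20a1 and Col22a1 differed by -0.28 to 0.34. Col9a2 was the one uncalled member with both tagged arrays above the untagged ones, by a small margin at dim levels.

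The short-chain collagen Col8a1, known from vessel walls and the cornea, had 8.11, 8.22 and 4.98 in carcinoma 1 to 3, 6.33 and 6.70 in papilloma 1 and 2, 11.18 in carcinoma GFP and 9.16 in papilloma GFP. The difference was 3.40 (SE 0.90, limma adjusted p = 0.0411). The call was lost in 6 of the 7 fits that left out 1 array, each but that without carcinoma 3, where the adjusted p values reached 0.383. Col26a1, below the median gene in all arrays, lay at 4.05 to 4.35 untagged, 6.26 in carcinoma GFP and 4.74 in papilloma GFP, a difference of 1.31 (SE 0.31, limma adjusted p = 0.029). That call was lost without carcinoma 1, carcinoma 2, carcinoma 3 or carcinoma GFP. Col12a1 lost its call without carcinoma 1, papilloma 1 or papilloma 2 as well as without either tagged array. Col23a1, a membrane-spanning collagen, had 6.51, 7.86 and 6.73 in carcinoma 1 to 3, 9.12 and 7.43 in papilloma 1 and 2, 8.90 in carcinoma GFP and 7.87 in papilloma GFP, and its arrays overlapped (0.80, SE 0.69, limma adjusted p = 0.481). In all, 27 of the 40 members were above the median gene in at least 1 array, against 61.1% of all genes, and 13 were below it in every array, Col8a2 and Col10a1 among them.

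The members were measured by 80 probe sets, with more than 1 for 27 genes. Of the 21 called genes 15 had more than 1, and for 11 of these both tagged arrays lay above all untagged arrays on every probe set. Col12a1, Col14a1, Col8a1 and Col26a1 had a dimmer probe set where they did not. On that of Col12a1 and that of Col14a1 both tagged arrays lay below all untagged arrays, with differences of means of -0.22 and -0.30. On those of Col8a1 and Col26a1 tagged and untagged arrays overlapped. Averaging the probe sets of a gene lowered the difference of Col12a1 to 1.23, where it was not called (limma adjusted p = 0.0693), and those of Col14a1, Col5a3 and Col26a1 to 1.88, 1.92 and 0.71, still called. For Col25a1, a membrane-spanning collagen, the choice of probe set decided the result. The brighter probe set lay at 6.32 to 7.17 untagged and 6.38 and 6.42 in carcinoma GFP and papilloma GFP, and the fitted difference was -0.29 (SE 0.28, limma adjusted p = 0.545). On the dimmer one the untagged arrays lay at 3.69 to 3.89 and the tagged arrays at 7.89 and 6.31, a difference of means of 3.29. Which of these reports Col25a1 was not tested.

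Carcinoma and papilloma cells were compared in the same model. None of the 40 collagens was called higher or lower (0.0% of all genes in either direction, limma, smallest adjusted p = 1), and 0 had an unadjusted p under 0.05, against 1.82% of all genes. Median differences, carcinoma minus papilloma, were 0.01 for fibrillar, -0.09 for basement membrane and -0.04 for other collagens, against -0.01 over all genes, and 18 of 40 had a higher fitted carcinoma level. The 5 largest differences were 1.01 (SE 0.82) for Col8a1, 0.91 (SE 0.43) for Col24a1, 0.75 (SE 0.34) for Col18a1, 0.62 (SE 0.31) for Col6a4 and -0.57 (SE 0.63) for Col23a1, each with a limma adjusted p of 1. For Col8a1 the mean over carcinoma arrays was 8.12 ± 2.53 (SD, n = 4) and that over papilloma arrays 7.40 ± 1.54 (SD, n = 3), so the difference was smaller than the spread. Leaving out carcinoma 3 raised the Col8a1 difference to 1.77. Without the tagged arrays the difference of Col24a1 was 0.24. Col6a4 was the single member with all carcinoma arrays above all papilloma arrays, which held for 0.506% of all genes. Its values were 6.12, 6.16, 6.76 and 6.24 in carcinoma 1, 2, 3 and GFP and 6.06, 5.02 and 6.06 in papilloma 1, 2 and GFP, so papilloma 2 set most of the difference. Without papilloma 2 it was 0.24. On the dimmer Col6a4 probe set the tumour types overlapped, at 4.46 to 4.85 in carcinoma and 4.69 to 5.11 in papilloma arrays. The difference of Col18a1 was 1.15 among the untagged arrays and 0.35 without papilloma 2.

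Within the tagged pair the classes of collagen differed unequally between the tumour types, with 1 array each and therefore no test within the pair. Carcinoma GFP exceeded papilloma GFP for 9 of 11 fibrillar collagens, with a median of 1.07, and for 5 of 5 Col6 chains, with a median of 1.22. Col1a1, Col5a1, Col5a2 and Col6a1 were higher in carcinoma GFP by 0.89, 1.18, 1.17 and 1.48. The largest values belonged to Col24a1 at 2.52, Col8a1 at 2.02 and Col14a1 at 1.97. For the Col4 chains the median was 0.14, and Col4a1, Col4a2, Col15a1, Col18a1 and Col13a1 differed by 0.08, 0.20, 0.19, -0.21 and -0.32. Over all genes carcinoma GFP was higher for 56.9%, with a median of 0.05. Fibroblast markers that are not collagens had a median of 1.05 (12 of 14 higher in carcinoma GFP), pericyte and smooth muscle markers 0.51 (10 of 10), endothelial markers 0.09 (9 of 15) and keratinocyte markers 0.00 (5 of 11). Lymphoid markers had a median of 0.66 (7 of 7) and myeloid markers 0.24 (7 of 8). Their part in the collagen values was not tested.

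**Figure D3:**
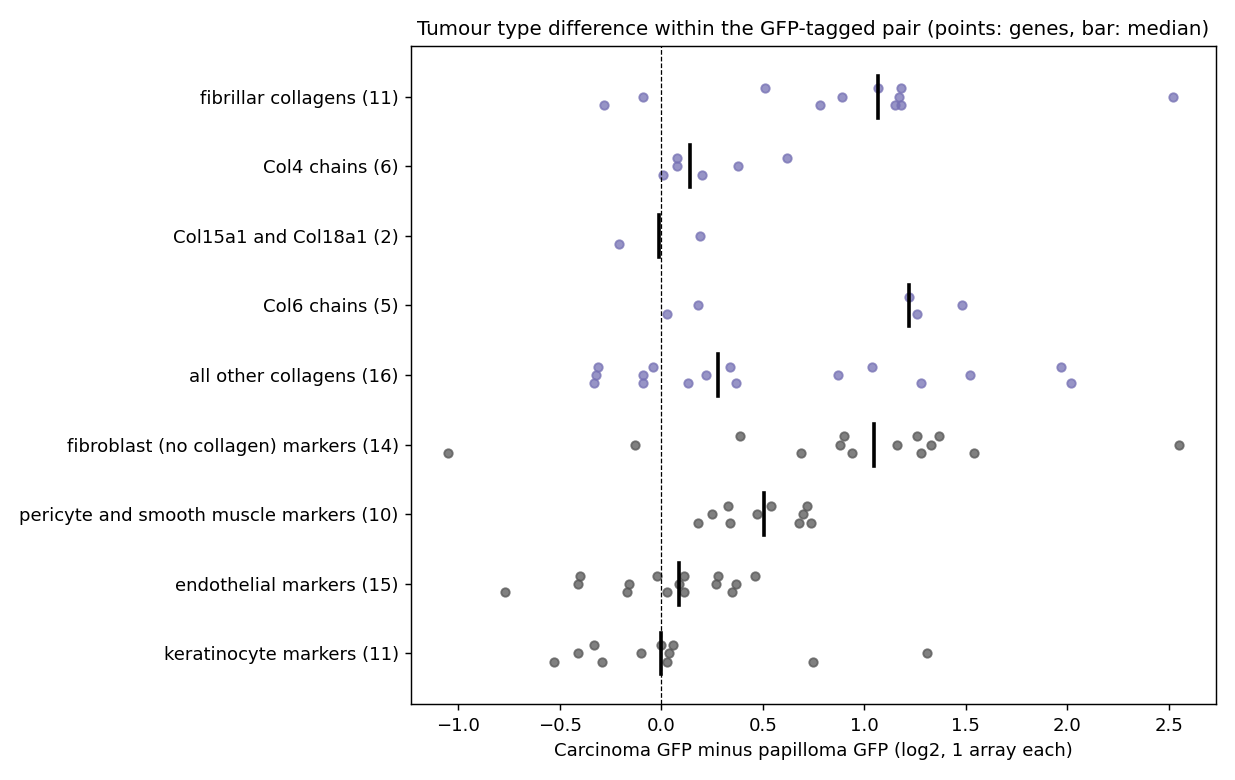
Carcinoma GFP minus papilloma GFP (log2 units, 1 array each) for each collagen gene by group and for cell type markers, with points for genes and bars for medians. The medians of fibrillar collagens, Col6 chains and fibroblast markers are 1.07, 1.22 and 1.05, and those of Col4 chains and endothelial markers 0.14 and 0.09.

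Whether the tag difference was unlike in the tumour types was tested with an interaction term, in which the spread came from the untagged arrays alone. No collagen passed over all genes (limma, 0 of 40, 0.0% of all genes, smallest adjusted p = 1). At an unadjusted p under 0.05 there were 9 of 40 collagens, against 2.14% of all genes. These were Col5a1, Col5a3, Col11a1, Col24a1, Col14a1, Col26a1, Col6a1, Col6a2 and Col8a2, each with the larger tag difference in carcinoma. Of these, Col5a3, Col11a1, Col24a1, Col14a1, Col26a1 and Col8a2 were below the median gene in every untagged array, with untagged SDs of 0.12 to 0.37. Col1a1 and Col12a1 were not among the 9. Their interactions were 1.73 (SE 1.07) and 2.21 (SE 1.37), with untagged SDs of 0.86 and 1.07. That of Col5a3 was 1.14 (SE 0.46). The part of the small spread at dim levels in the count of 9 was not tested. For Col14a1 the tagged carcinoma array stood 5.03 above the mean of its untagged counterparts and the tagged papilloma array 2.54 above its own. For Col4a1 these values were 6.54 and 6.28, and for Col13a1 they were 6.95 and 7.14.

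Among the untagged arrays carcinoma 3 was low in the collagens called with the tag, but not in the others. It was the lowest of the 5 for 13 of the 21 genes called with the tag, for 3 of the other 19, and for 24.7% of all genes. Relative to the mean of the untagged arrays, the median of the 21 called genes was -0.68 in carcinoma 3, 0.01 in carcinoma 1, 0.36 in carcinoma 2, -0.01 in papilloma 1 and 0.17 in papilloma 2. In carcinoma 3 the median was 0.09 for the 19 genes not called and -0.11 for all 40. Of the 19 genes not called, 12 were below the median gene in every array, against 1 of the 21 called, so the sets differ in level. The calls were also made with these same untagged values. Fibroblast markers that are not collagens had the same array at the bottom for 9 of 14 genes, with a median of -0.61. So did 6 of 10 pericyte and smooth muscle markers (median -0.25), 5 of 8 myeloid, 4 of 15 endothelial, 2 of 7 lymphoid and 0 of 11 keratinocyte markers. The link between these was not tested. Leaving out carcinoma 3 moved the median tumour type difference of the fibrillar collagens from 0.01 to 0.33.

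Collagen chains are modified and folded in the endoplasmic reticulum, exported, trimmed and cross-linked. Of 36 listed genes for these steps 32 were measured. In the tagged arrays 17 were higher and 1 was lower, with a median difference of 1.06, beside the 11.9% and 7.93% of all genes given above. By step, 10 of 18 genes for chain modification and folding were higher and 1 lower, and 1 of 3 for export, 1 of 6 for the removal of procollagen ends and 5 of 5 for cross-linking were higher. Loxl1, a lysyl oxidase, lay at 4.60 to 5.0 in the untagged arrays, 9.59 in carcinoma GFP and 8.63 in papilloma GFP (4.32, SE 0.26, limma adjusted p = 0.000128). Lox lay at 5.11 to 6.26 untagged and at 10.30 and 7.02 in carcinoma GFP and papilloma GFP. The Lox difference was 3.02 (SE 0.68, limma adjusted p = 0.0228), and without carcinoma GFP it was 1.38 (limma adjusted p = 0.226). Pcolce, which speeds the removal of procollagen ends, differed by 4.25 (SE 0.53, limma adjusted p = 0.0024) and Fkbp14, a prolyl isomerase of the endoplasmic reticulum, by 3.45 (SE 0.27, limma adjusted p = 0.000366). Without carcinoma GFP Pcolce was not called (limma adjusted p = 0.0587). Averaging probe sets lowered Lox to 1.72 and Fkbp14 to 1.55, both still called.

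Genes of chain modification and folding differed among themselves. P4ha1, a catalytic subunit of prolyl 4-hydroxylase, differed by 0.19 (SE 0.21, limma adjusted p = 0.596), and Ppib, a prolyl isomerase, by 0.17 (SE 0.18, limma adjusted p = 0.552), and both turned to the other sign when array medians were set equal. Serpinh1, the collagen chaperone, differed by 2.38 (SE 0.43, limma adjusted p = 0.0101), but was not called without either tagged array. P3h2, a prolyl 3-hydroxylase, was the gene that was lower, by -1.17 (SE 0.33, limma adjusted p = 0.0487). It lay at 8.66 to 9.55 untagged, 8.26 in carcinoma GFP and 7.70 in papilloma GFP. The P3h2 call was lost in 5 of the 7 fits that left out 1 array, with adjusted p values up to 0.346. P4ha1, Ppib, Serpinh1 and P3h2 were named after their values were seen.

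Collagen receptors and uptake genes had 9 of 10 listed members measured, of which 1 was higher and 1 lower, shares near the 11.9% and 7.93% of all genes. Mrc2, a receptor that takes up collagen fragments, lay at 5.52 to 7.32 untagged, 9.48 in carcinoma GFP and 8.25 in papilloma GFP (2.40, SE 0.58, limma adjusted p = 0.0295). Ddr1, a receptor kinase of epithelial cells, was lower by -1.05 (SE 0.28, limma adjusted p = 0.0421), from 10.17 to 11.04 untagged to 9.65 and 9.51. Neither call was firm: Mrc2 lost it without carcinoma GFP (adjusted p = 0.377) or papilloma 1 (0.0556), and Ddr1 without carcinoma 1, carcinoma 3, papilloma 2 or either tagged array, up to an adjusted p of 0.266. Averaging probe sets gave 0.99 for Mrc2 (limma adjusted p = 0.11) and -0.89 for Ddr1 (limma adjusted p = 0.0535), neither called. Ddr1 was at -2.16 (limma adjusted p = 0.000824) without probe sets ending in _x_at or _s_at, and missed the threshold after a further quantile normalization (limma adjusted p = 0.054). The integrin chain Itga1 and the receptor kinase Ddr2 differed by 2.24 (SE 0.76, limma adjusted p = 0.0893) and 0.80 (SE 0.28, limma adjusted p = 0.103). Without carcinoma 1 the Itga1 difference passed (2.62, limma adjusted p = 0.0286), as did that of Ddr2 without papilloma 2 (0.98, limma adjusted p = 0.0302). With probe sets averaged Ddr2 was at 1.85 (limma adjusted p = 0.0021). Array weights also called both, Ddr2 at 0.99 and Itga1 at 2.7 (limma adjusted p = 0.00416 and 0.0102).

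Small proteoglycans that coat collagen fibrils were higher for 6 of 8 genes, against 11.9% of all genes, with a median of 3.65. Lum differed by 4.19 (SE 0.53, limma adjusted p = 0.00273), Bgn by 4.13 (SE 0.80, limma adjusted p = 0.0134), Aspn by 4.11 (SE 0.64, limma adjusted p = 0.00613) and Dcn by 4.02 (SE 0.72, limma adjusted p = 0.00991). Dcn lay at 6.10 to 8.58 untagged, 12.21 in carcinoma GFP and 10.85 in papilloma GFP. Averaging probe sets lowered Dcn to 1.87, still called. Lum and Dcn also stand in the fibroblast marker list. Without carcinoma GFP none of these named genes was called, with adjusted p values of 0.0532 to 0.218. Between the tumour types 0 genes of these lists passed (limma). The 2 largest differences of each list, carcinoma minus papilloma, were 1.08 (SE 0.62) for Lox and 1.07 (SE 0.81) for Pcolce2 in synthesis, 0.75 (SE 0.35) for Itgb1 and 0.50 (SE 0.39) for Itga2 among receptors, and 0.93 (SE 0.68) for Ogn and -0.60 (SE 0.49) for Lum among proteoglycans. Ogn turned to -0.10 without the tagged arrays.

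**Figure D4:**
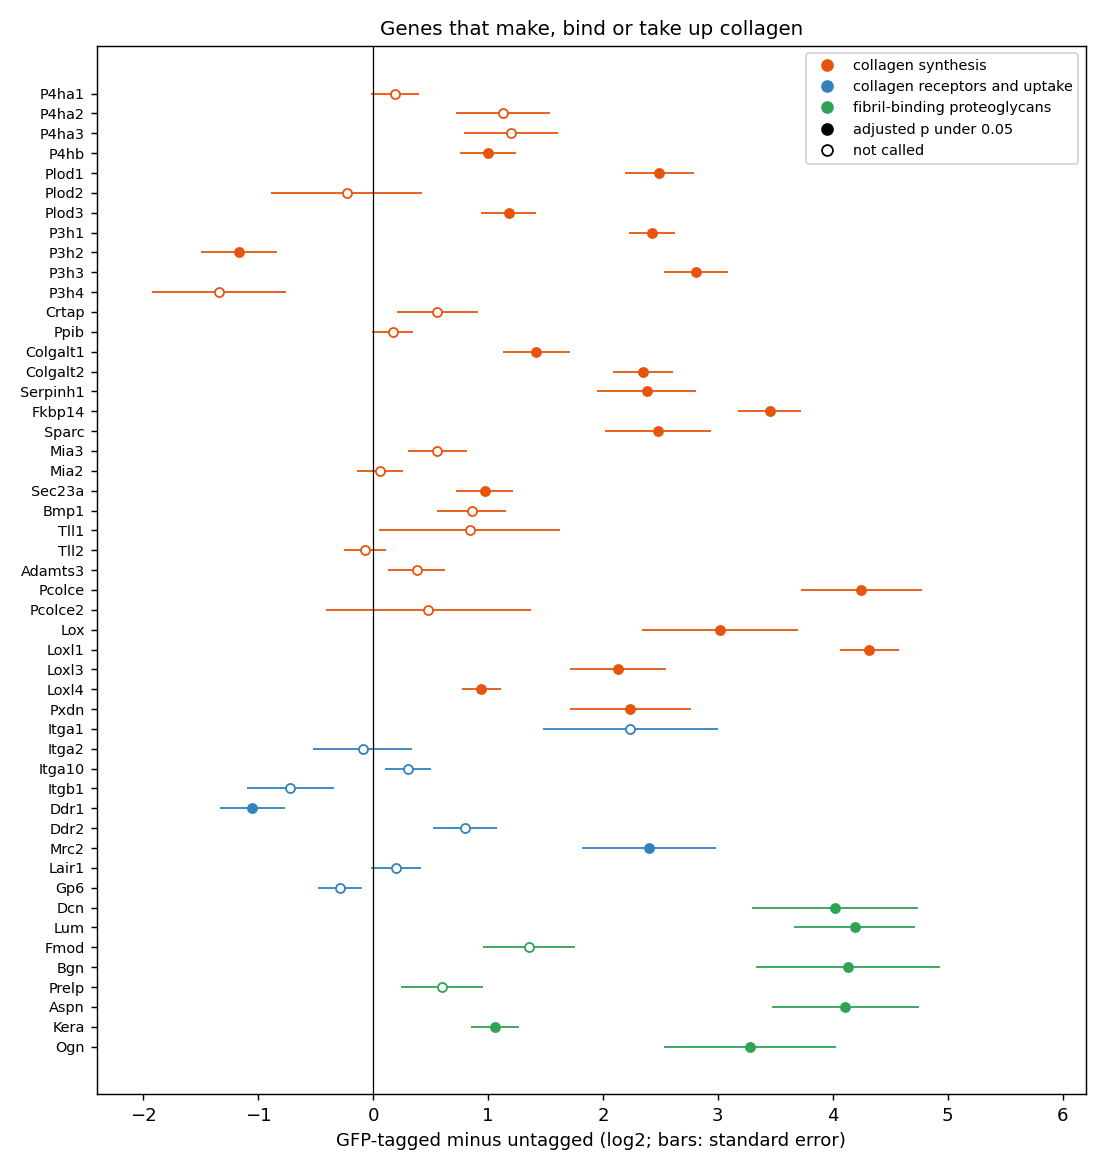
Tagged minus untagged difference with standard error (log2 units) of genes for collagen synthesis, collagen receptors and uptake, and fibril-binding proteoglycans. Filled points passed the adjusted p of 0.05: 17 higher and 1 lower of 32, 1 and 1 of 9, and 6 and 0 of 8.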

How the data were processed

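The 7 arrays measured RNA of sorted tumour cells. Per the labels' protocols, RNA of the sorted cells was extracted with a micro kit, amplified and measured on an Affymetrix mouse strip array, and the authors normalized with RMA. RMA and affy are also named in the submitters' processing notes, without versions. The deposited values are log2 levels from 2.72 to 14.51, a scale read from the values.

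Of 45101 probe sets, 34958 had 1 symbol in the 2016 platform annotation, and these gave 18193 genes. Below the median gene means below the median of the 18193 genes in that array. limma 3.58.1 in R 4.3.3 (lmFit, eBayes) fitted tumour type and the GFP tag together, with Benjamini-Hochberg adjustment over all genes and a threshold of 0.05. The interaction was a second fit. The code was tested on simulated data. The RefSeq table (GRCm38.p6) gave symbols, neighbours and promoters.

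Per-array values were given for members above the median gene in at least 1 array: all fibrillar and Col4 chains, then others that were called or among the 5 largest differences. In pathway lists the 4 largest tag and 2 largest tumour type differences were named. Members and lists were chosen with earlier results of these data known. Col16a1, Col20a1, Col26a1 and Col25a1 were described beyond that rule. Same-numbered arrays (1, 2, GFP) deviated together at r = 0.476, 0.194 and 0.861 across genes, all above 0.1, and at 0.101 and -0.303 for numbers 1 and 2 without the tagged arrays. The replicate number as a block was therefore fitted as an alternative for tumour type. Alternatives changed the probe set, the filter on dim genes, the scaling, the spread model, array weights, the model terms and the arrays used. Precision is limited by how few arrays there are.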

Additional observations from a re-analysis of the deposited data

Results flagged for a closer look

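Within the 4 carcinoma arrays, or the 5 untagged arrays, 12 of the 80 combinations of gene and group had 1 array apart from the others by Dixon's test. Chance gives about 1 in 20, but the 12 cannot be set against that, because the carcinoma arrays mix tagged and untagged ones. The share over all genes was not computed. The carcinoma group holds 1 tagged and 3 untagged arrays, so the 8 in which carcinoma GFP was high restate the tag difference: Col5a1 at 12.05, Col5a3 at 9.64, Col11a1 at 7.88, Col24a1 at 6.96, Col15a1 at 10.65, Col13a1 at 12.22, Col14a1 at 9.82 and Col26a1 at 6.26. The others were Col2a1 at 5.20 in carcinoma 1, Col15a1 at 6.18 in papilloma 2, and Col20a1 at 6.40 and Col6a5 at 3.51 in carcinoma 2, all dim.

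For Col18a1, Col14a1 and Col8a2 the tumour types did not overlap among the untagged arrays and had the opposite order in the tagged pair. This holds for the probe set chosen for each gene. On the other probe set of Col18a1 papilloma 1, at 10.61, lay above carcinoma 3, at 10.49. There both tagged arrays were at 12.6. Of the dimmer Col14a1 probe sets, 1 had the same reversal and 1 had overlapping untagged tumour types. The mean difference alone had opposite signs for 25 of the 40 genes, most of them with overlapping untagged arrays. Examples were Col1a1 (0.89 in the tagged pair, -0.85 untagged) and Col12a1 (1.28 in the tagged pair). How many of all genes had such reversals of order or sign was not computed, so these counts are not a result about collagens. Col18a1 was higher in all untagged carcinomas than in the untagged papillomas and lower in carcinoma GFP than in papilloma GFP (interaction -1.36, SE 0.59, limma adjusted p = 1). Col14a1 ran the other way (2.49, SE 0.47, limma adjusted p = 1), as did Col8a2 (1.33, SE 0.41, limma adjusted p = 1). For Col8a2 the tag difference also had opposite signs, 1.08 in carcinoma and -0.26 in papilloma.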

How the results depend on the processing

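All 21 collagens higher with the tag kept their direction in every setting that tested them. Only 16 of them were in the brighter set, and all 16 were called there. The brighter set is the 9096 genes whose mean over all 7 arrays was above the median of these means. That mean includes the tagged arrays, so members high in them could enter through them. Col13a1 and Col15a1, below the median gene in every untagged array, were in the set. Its calls and class medians are therefore not independent of the tag difference. Averaging probe sets lost Col12a1, and array weights called 23 collagens. Genes called higher numbered 1228 in the brighter set and 3520 with array weights. Those called lower numbered 3299 with array weights and 2442 with equal array medians. Leaving out 1 array gave 637 to 2207 genes higher, 224 to 1748 lower and 11 to 20 collagens higher. The median tag difference was 4.37 (fibrillar), 5.34 (basement membrane) and 4.32 (other) in the brighter set. It was 0.77 (basement membrane) and 0.22 (other) with equal array medians. Without probe sets ending in _x_at or _s_at it was 1.27 (basement membrane), and with array weights 0.67 (other). Leaving out 1 array gave 2.83 to 3.97, 0.84 to 1.19 and 0.27 to 0.79 for the 3 classes. For tumour type, 0 collagens were called in any setting, and 1 gene of all, Xist, was called lower when probe sets were averaged (-3.53, limma adjusted p = 0.0441). Median collagen differences were 0.59, 0.15 and 0.25 for the 3 classes with array weights, and 0.08 for basement membrane collagens in the brighter set. Leaving out 1 array gave -0.19 to 0.37, -0.16 to 0.18 and -0.12 to 0.17. With the replicate block the medians were 0.33 (fibrillar) and 0.18 (basement membrane), and the block changed no call. No papilloma array carries the number 3, so with the block carcinoma 3 has no part in the tumour type difference. The block therefore gives the same differences as leaving out carcinoma 3 and is not a separate check of them. Since the tag is itself a replicate label, the tag could not be fitted with the block. Signs that turned were those of Col23a1 (0.10 with array weights, -1.24 to 0.18 without 1 array), Lum (0.17 with array weights), Ogn (-0.10 without either or both tagged arrays, and up to 1.49 without another), P4ha1 (-0.05 with equal array medians, -0.01 to 0.36 without 1 array) and Ppib (-0.06 with equal array medians). Except where fewer genes or arrays entered by construction, the cause of each shift was not tested.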

Other observations

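Several collagen genes are neighbours in the genome (RefSeq, GRCm38.p6), and 7 neighbouring pairs were measured. The tag differences of the neighbours were 6.42 and 5.94 for Col4a1 and Col4a2, 4.25 and 5.25 for Col3a1 and Col5a2, and 5.24 and 5.34 for Col6a2 and Col6a1. The other pairs held members that were not called: Col4a4 and Col4a3 (0.26 and -0.19), Col4a6 and Col4a5 (-0.14 and -0.49), Col6a5 and Col6a4 (-0.15 and 0.19) and Col9a1 and Col19a1 (-0.14 and -0.13). No neighbouring pair had 1 called and 1 uncalled member. Of the uncalled members, Col4a3, Col4a4, Col4a6, Col6a5, Col9a1 and Col19a1 were below the median gene in every array. How often neighbours among all genes share a call was not computed, so this is not a result about collagens.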
